A study of Mus musculus with 6 samples.

Results

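The genes described here carry the prolactin signal inside the cell and damp it: the kinases Jak1 and Jak2, the transcription factors Stat3, Stat5a and Stat5b, and the feedback inhibitors Socs1, Socs2, Socs3 and Cish. They were named by symbol, together with the prolactin receptor gene Prlr, and every probe set that the annotation of the array paired with exactly 1 of these symbols was taken. This gave 24 probe sets of 9 genes, of 45101 probe sets and 18194 named genes in all. The annotation used here paired no probe set with Prlr, which was therefore not analysed here.

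Prolactin binds its receptor on mammary epithelial cells, JAK2 bound to the receptor becomes active, and STAT5A and STAT5B are phosphorylated and move to the nucleus. There they bind a palindromic motif near genes for alveolar growth and milk synthesis. CISH and the SOCS proteins are switched on by STAT proteins and shut the receptor complex down, while STAT3, activated through JAK1 by cytokines of the interleukin-6 family, is best known in this tissue for its role in involution after weaning. These steps act through phosphorylation, which arrays do not measure.

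RNA was measured in luminal mammary epithelial cells (MECs) of adult virgin females, with 1 array for each of 6 mice. Runx1-null cells came from 3 mice of the genotype MMTV-Cre;Runx1L/L;R26Y, in which Cre removes a floxed exon of the transcription factor gene Runx1. Runx1-WT cells came from 3 mice of the genotype MMTV-Cre;Runx1+/+;R26Y, so all 6 mice carried both the Cre transgene and the YFP reporter R26Y that marks cells with a history of Cre activity. Cre was driven by the mouse mammary tumor virus promoter, which targets luminal and some basal MECs and can be active in blood cells. The cells were sorted as YFP+ Lin-CD24+CD29lo. By qRT-PCR the authors found Runx1 expression lost in YFP+ MECs of Runx1L/L mice. In the mature luminal cells among them it was only slightly reduced, and the paper proposes that many of these escaped excision. The methods describe littermates, but the litter of each mouse is not among the labels. Mice are numbered 1 to 3 within each genotype, and these numbers pair no mice. Animal numbers on the labels fall in a lower range, with mice 1 and 2 of each genotype, and an upper range, with mouse 3 of each.

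All values are linear intensities that the authors normalized with dChip. The intensities of different probe sets are not on a common scale, so the levels of single genes were compared only within a probe set. Levels of marker lists were summed and compared between mice, and the probe sets with the highest intensities weigh most in such sums. Values below 19.335 were set to that floor before log2 was taken, and 22709 probe sets with a mean intensity of at least 73.475 were tested with limma (difference: Runx1-null minus Runx1-WT). Values below the floor made up 18.8% to 22.3% of each array, and the array medians ran from 106 to 163. The general luminal markers Krt8, Krt18 and Epcam were at 9411 or more in every mouse. The 6 probe sets of Runx1 overlapped between genotypes (log2 difference -0.19 to 0.26), and as their position relative to the floxed exon was not analysed here, they do not check the genotype labels. In Runx1-WT mouse 3 the summed level of 13 leukocyte markers was 12475, against 2664 to 4617 in the other mice, and the pan-leukocyte gene Ptprc was at 205 against 18.3 to 47.4. The largest terms of that sum were Cd74 (4218), H2-Aa (3236), Lyz2 (1894) and H2-Ab1 (1833). Csf1r was lowest in that mouse (155 against 194 to 321), and Cd68 (345) and Itgam (12.8) lay within the range of the others. All the other markers of the list were highest there. In bulk RNA, fewer cells of a type and less RNA per cell cannot be told apart.

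No gene of the pathway passed the test. Of the 22 member probe sets tested, 0 had an adjusted p under 0.05 in limma, as for 0% of all 22709 tested, and 0 had an unadjusted p under 0.05, against 1.68% of all. Their differences lay above 0 for 12 and below 0 for 10, with a median of 0.033 beside -0.031 over all tested probe sets. The Socs1 probe set and 1 of the 6 Socs2 probe sets were too dim to be tested, so the tested probe sets cover 8 genes. The genotypes did not overlap for 1 member probe set, of Stat5b, which was higher in Runx1-null cells. This is 1 of 22, where 5.21% of all tested probe sets did not overlap, 1.92% with every Runx1-null mouse higher and 3.29% with every Runx1-null mouse lower. Counted by the brightest probe set of each gene, 1 of the 8 member genes did not overlap, where 5.55% of all 12152 genes did not, 2.08% higher and 3.47% lower.

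**Figure D1:**
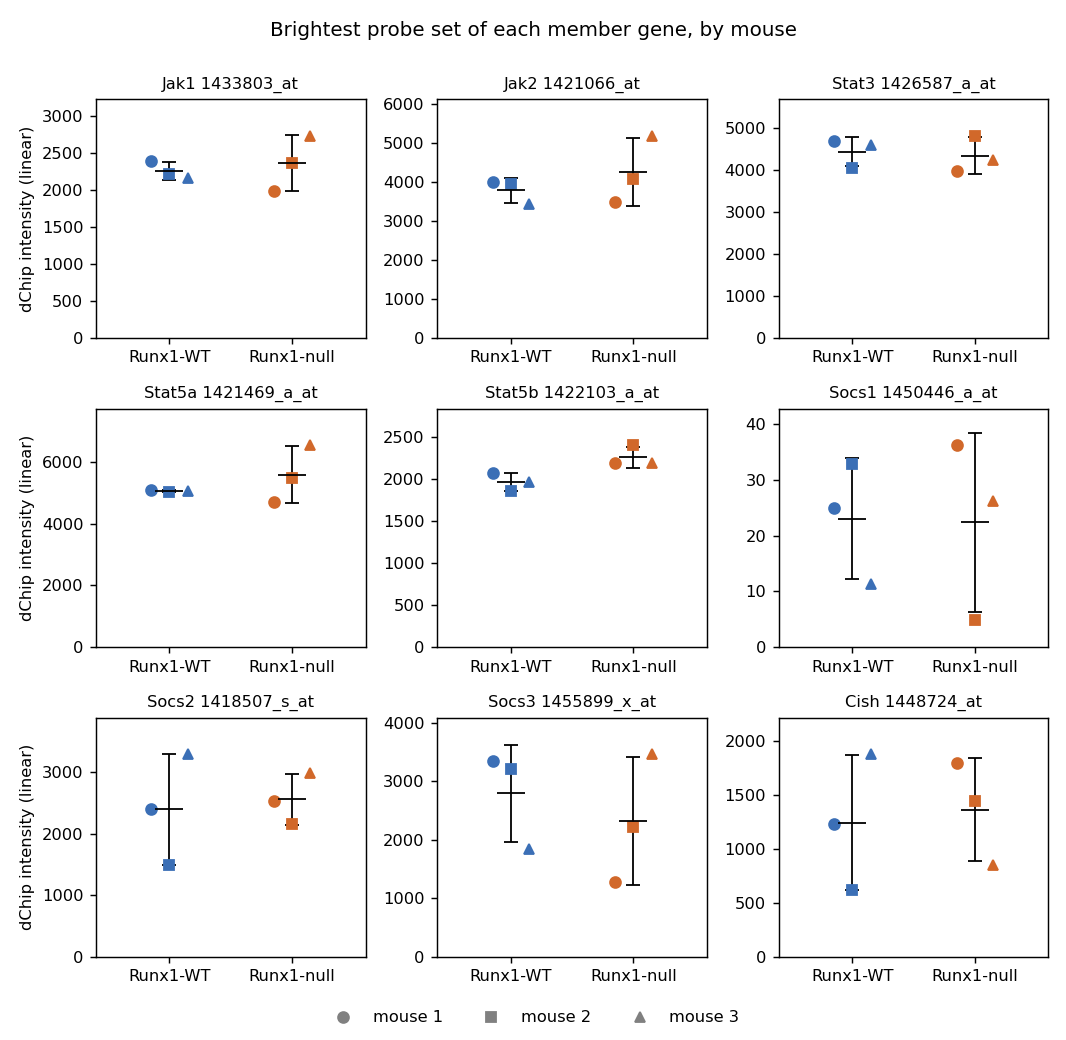
Intensity (linear dChip values, y axis from 0) of the brightest probe set of each of the 9 member genes in the 3 Runx1-WT and 3 Runx1-null mice. Each point is 1 mouse, with its number as the symbol, and the bar and whiskers give the mean and SD (n = 3). The Stat5b groups are the only ones that do not overlap, and Socs3 and Cish spread widely within each genotype.

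Jak2 encodes the kinase that transmits the prolactin signal. Its brightest probe set, 1421066_at, was at 4000, 3931 and 3416 in Runx1-WT mice and at 3480, 4079 and 5179 in Runx1-null mice. The highest value was in Runx1-null mouse 3 and the groups overlapped, with a log2 difference of 0.15 (standard error 0.16; 95% interval -0.22 to 0.52). The second probe set, 1421065_at, again stood highest in Runx1-null mouse 3, with 1146, while the other mice had 436 to 623 (log2 difference 0.17, standard error 0.36).

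Jak1 encodes the kinase used by receptors of the interleukin-6 and interferon families. Probe set 1433803_at was at 2392, 2210 and 2156 in Runx1-WT mice and at 1978, 2361 and 2734 in Runx1-null mice. The lowest and the highest value were both in Runx1-null mice, and the log2 difference was 0.055 (standard error 0.15). Of the other probe sets, 1433805_at gave a log2 difference of -0.073 (standard error 0.14) and 1433804_at one of -0.091 (standard error 0.26). The interval of the first, -0.31 to 0.42 on the log2 scale, corresponds to 0.807 to 1.34 times the Runx1-WT level.

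Stat5a is the STAT gene most tied to alveolar development and milk synthesis. Its brightest probe set, 1421469_a_at, was at 5099, 5042 and 5061 in Runx1-WT mice and at 4720, 5481 and 6553 in Runx1-null mice. The Runx1-WT mice lay close together, and the Runx1-null mice lay on both sides of them. The log2 difference was 0.13 (standard error 0.12), with an interval of -0.16 to 0.41. The dimmer probe set 1450259_a_at was at 142, 138 and 205 in Runx1-WT mice and at 163, 210 and 358 in Runx1-null mice, a log2 difference of 0.54 (standard error 0.35). It too was highest in Runx1-null mouse 3, and its groups overlapped. Weighting the arrays by how closely each followed the fitted model brought this probe set past the threshold, at 0.55 (limma adjusted p = 0.0445). That fit also called 14% of all tested probe sets. Runx1-WT mouse 1 and Runx1-null mouse 2 weighed most in it, at 7.92 and 6.29 against 0.251 to 0.561 for the others.

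RUNX proteins bind TGTGGT and, less often, TGCGGT. These letters were looked for on both strands, from 250 bases before to 50 bases after each gene start. RefSeq's annotation of GRCm38.p6 listed 13 promoters for 9 of the 10 named genes, Prlr included. No promoter was listed for Socs2, so none of it was searched. Only 1 of the 13, the first promoter of Stat5a, held either, with TGTGGT on the minus strand 18 to 23 bases into the transcript. TGTGGT was found in 16.8% of all 32851 promoters and either of both in 22.4%, so the match is a description. The stretch around it (chr11:100859661-100859690, plus strand) is shown because it holds the only RUNX-type letters among these promoters, with the match in capitals as it reads on the plus strand:
Stat5a: gactgtgatgtgACCACAgtgaggtcctgg

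Stat5b, whose product is highly similar to STAT5A and carries much of the growth hormone response in other tissues, was the member with the clearest separation. Probe set 1422103_a_at was at 2069, 1860 and 1963 in Runx1-WT mice and at 2193, 2407 and 2189 in Runx1-null mice. Every Runx1-null mouse lay above every Runx1-WT mouse. The means were 1964 ± 104 in Runx1-WT mice and 2263 ± 124 in Runx1-null mice (SD, n = 3 each). On the log2 scale the difference was 0.20 (standard error 0.12; 95% interval -0.091 to 0.50). It did not pass limma (adjusted p = 0.9999), and the exact two-sided permutation test gave p = 0.1, the smallest that 3 mice against 3 allow. Its spread within genotypes, a log2 SD of 0.078, stood at percentile 4.3 of all tested probe sets. The unadjusted p was 0.146 in limma, and over the 20 alternative settings with a test it ran from 0.00968 to 0.354. It was under 0.05 in 3 of them: with no filter on dim probe sets (0.0265, where 929 of 34958 probe sets were under 0.05), with the methods' t-test (0.0319, where 560 of 22709 were) and with weighted arrays (0.00968, where 7828 of 22709 were). Leaving out each mouse in turn gave log2 differences of 0.16 to 0.24. The difference was 0.23 for the lower range of animal numbers and 0.16 for the upper. As the groups do not overlap, the sign could not turn in any of these subsets of the mice. The dim second probe set, 1422102_a_at, was at 76.9, 60.01 and 71.6 in Runx1-WT and at 115, 76.6 and 80.9 in Runx1-null mice. Runx1-null mouse 2 lay just under Runx1-WT mouse 1, so these groups overlapped (log2 difference 0.37, standard error 0.31). RNA quality was read from control probe sets at either end of the Gapdh transcript. Their log2 ratio, the 3′ over the 5′ end, was also higher in every Runx1-null mouse, with 0.46 ± 0.0034 in Runx1-WT mice and 0.54 ± 0.069 in Runx1-null mice (SD, n = 3 each; exact permutation test, p = 0.1), and its part in the Stat5b values was not tested. The summed levels of 8 endothelial markers (1539 to 2152 in Runx1-WT mice, 957 to 1284 in Runx1-null mice) and 8 stromal markers (13801 to 15769 and 5084 to 13329) separated the genotypes too, both lower in Runx1-null cells. Each gave p = 0.1 in the exact permutation test, again the smallest possible, with no adjustment for the number of lists summed. All the other summed lists overlapped between genotypes. The stromal groups were close, at 13329 against 13801 where they met, and Runx1-null mouse 3 alone lay far below, at 5084. The part of the endothelial and stromal markers in the Stat5b values was not tested either. The beta-actin 3′ to 5′ ratio overlapped, with 0.51 ± 0.013 and 0.56 ± 0.15 (SD, n = 3 each; exact permutation test, p = 0.8).

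Stat3 was nearly level. Probe set 1426587_a_at was at 4674, 4035 and 4584 in Runx1-WT mice and at 3975, 4810 and 4225 in Runx1-null mice. The groups overlapped throughout their range, and the log2 difference was -0.033 (standard error 0.11; 95% interval -0.29 to 0.22), with the sign turned at 0.058 after median scaling of the arrays. Probe set 1460700_at followed it over the mice (Pearson r = 0.97 over 6 mice, as a description) and gave -0.026 (standard error 0.17). The dim probe set 1424272_at gave 0.034 (standard error 0.21). Probe set 1459961_a_at varied more, and was at 1761, 747 and 588 in Runx1-WT and at 722, 956 and 339 in Runx1-null mice (log2 difference -0.57, standard error 0.52). This probe set was highest in Runx1-WT mouse 1 and lowest in Runx1-null mouse 3, the mice whose arrays had the highest and the lowest median intensity. The same was true of Socs2 probe set 1442586_at and of Jak1 probe set 1433804_at, and the part of the array level in these 3 probe sets was not tested. By their RefSeq promoters Stat5b, Stat5a and Stat3 all lie on chromosome 11.

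**Figure D2:**
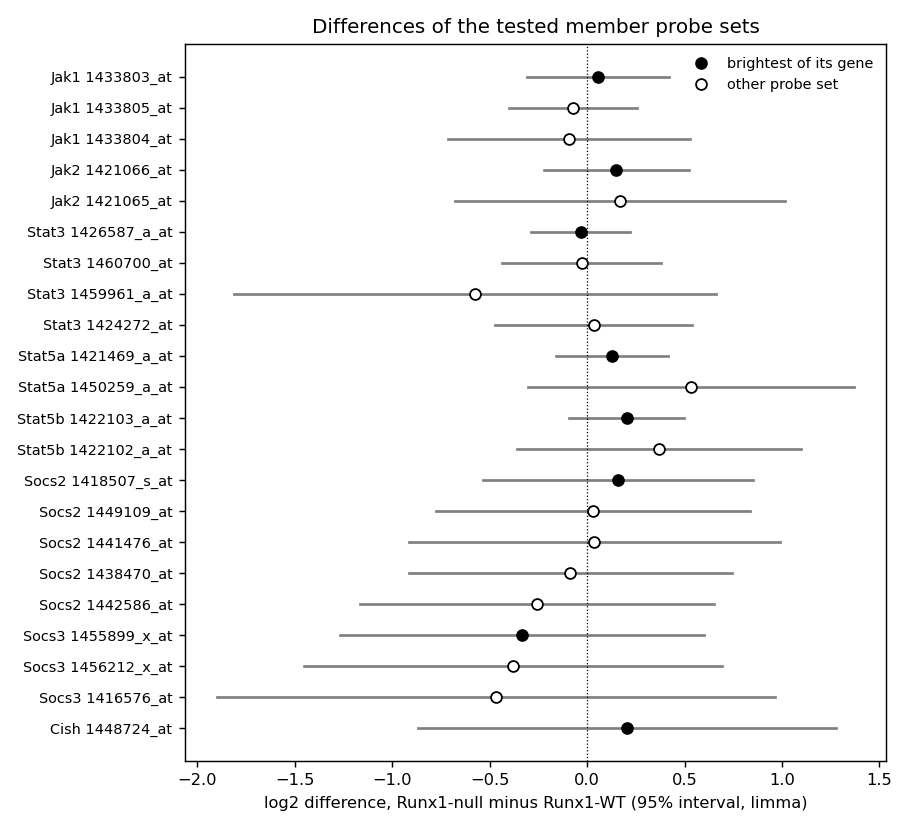
Log2 difference (Runx1-null minus Runx1-WT, x axis) of each of the 22 tested member probe sets, with its 95% interval from limma as the bar. Filled points are the brightest probe set of a gene. All 22 intervals include 0, and those of the brightest Stat3, Stat5a and Stat5b probe sets are narrower than those of Socs3 and Cish.

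The SOCS genes and Cish, which are induced by the pathway and inhibit it, varied more between mice than the kinases and STAT genes when each gene is taken by its brightest probe set. Over all tested probe sets the median log2 SD within genotypes was 0.29. It was 0.61 to 0.94 for the 3 probe sets of Socs3, 0.69 for Cish and 0.44 to 0.55 for the 5 of Socs2, against 0.078 to 0.22 for the brightest probe sets of Jak1, Jak2, Stat3, Stat5a and Stat5b. Some dimmer probe sets of the latter spread as widely, with 0.80 for Stat3 1459961_a_at, 0.51 for Jak2 1421065_at and 0.47 for Stat5a 1450259_a_at.

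Socs3 encodes an inhibitor of signals through the interleukin-6 receptor subunit gp130 and a STAT3 target. Probe set 1455899_x_at was at 3345, 3206 and 1835 in Runx1-WT and at 1279, 2216 and 3463 in Runx1-null mice. The lowest value was in Runx1-null mouse 1 and the next in Runx1-WT mouse 3, while Runx1-null mouse 3 was highest. The log2 difference was -0.33 (standard error 0.39; 95% interval -1.27 to 0.60). Probe set 1416576_at showed the same order over a wider span, at 1257, 1042 and 581 in Runx1-WT mice and at 274, 734 and 1430 in Runx1-null mice. The 3 Socs3 probe sets followed each other over the 6 mice (Pearson r = 0.976 to 0.997), and all were lower on average in Runx1-null cells, at -0.33, -0.38 and -0.47. That sign rested on Runx1-null mouse 1: without it the differences were 0.037, 0.027 and 0.17. For the lower range of animal numbers they were -0.96, -1.12 and -1.35, with an unadjusted p under 0.05 in limma for all 3, as for 13.4% of all tested probe sets in that range, and an adjusted p of 0.298 to 0.338. In the upper range, with 1 mouse of each genotype and no test, they were 0.92, 1.11 and 1.30. Weighted arrays gave -0.60 and -0.72 for 1455899_x_at and 1456212_x_at, with limma adjusted p of 0.0463 and 0.0380, in the fit that called 14% of all probe sets. There Runx1-WT mouse 1 and Runx1-null mouse 2 had weights of 7.92 and 6.29, and the other mice had 0.251 to 0.561.

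STAT dimers bind TTCNNNGAA, which reads the same on both strands. It was found in 3 of the 13 promoters, 1 each of Prlr, Socs3 and Cish, and in 8.3% of all 32851. The Socs3 stretch (chr11:117969487-117969546, minus strand, as the gene reads, from 180 to 121 bases before the start) and the Cish stretch (chr9:107296654-107296683, plus strand, from 5 bases before the start to base 25 of the transcript) are shown because these genes had the largest spread between mice among the members' brightest tested probe sets, with the matches in capitals:
Socs3: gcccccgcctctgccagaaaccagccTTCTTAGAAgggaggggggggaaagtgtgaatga
Cish: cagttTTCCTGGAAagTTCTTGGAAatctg
Cish held 2 matches, at bases 1 to 9 and 12 to 20 of the transcript, and 0.457% of all promoters held 2 or more. Whether STAT proteins were bound there was not measured.

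Cish encodes a SOCS-family inhibitor and is a direct STAT5 target. Its probe set, 1448724_at, was at 1231, 617 and 1871 in Runx1-WT and at 1792, 1436 and 846 in Runx1-null mice. The highest values were in Runx1-WT mouse 3 and Runx1-null mouse 1, where Socs3 was lowest, and the lowest in Runx1-WT mouse 2. The log2 difference was 0.21 (standard error 0.45), with an interval of -0.87 to 1.28, or 0.548 to 2.42 times the Runx1-WT level. The sign depended on single mice: leaving out Runx1-WT mouse 2 gave -0.23, and leaving out Runx1-null mouse 1 gave -0.028. It was 0.88 for the lower range of animal numbers (limma, unadjusted p = 0.0492, adjusted p = 0.371) and -1.15 in the upper range.

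Socs2 encodes the inhibitor best known for restraining growth hormone signals. Probe set 1418507_s_at was at 2404, 1487 and 3287 in Runx1-WT and at 2535, 2159 and 2980 in Runx1-null mice. Runx1-WT mice were both the lowest and the highest, as mouse 2 and mouse 3, and the log2 difference was 0.16 (standard error 0.29). Without Runx1-WT mouse 2 it was -0.15. Of the 5 tested Socs2 probe sets, 4 followed each other over the mice (Pearson r = 0.85 to 0.98), and 1442586_at did not follow them (r = -0.23 to -0.17). The other log2 differences ran from -0.26 to 0.038.

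Socs1, an inhibitor of JAK kinases that restrains prolactin and interferon signals, was near or below the floor. Probe set 1450446_a_at was at 25.0, 32.8 and 11.3 in Runx1-WT and at 36.2, 4.79 and 26.1 in Runx1-null mice. One mouse of each genotype was below the floor, and the level of Socs1 could not be compared at this signal.

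**Figure D3:**
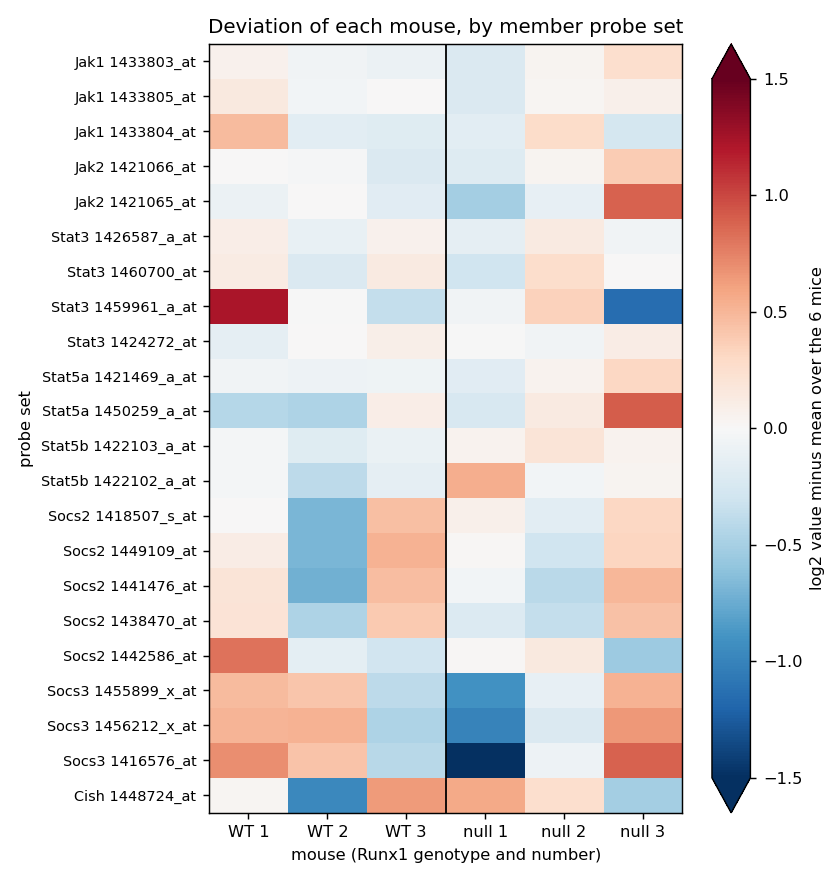
Deviation of each mouse (columns) from the mean over the 6 mice, on the log2 scale, for the 22 tested member probe sets (rows). Red is above the mean and blue below, and the colours end at -1.5 and 1.5. Socs3 is blue in Runx1-WT mouse 3 and Runx1-null mouse 1, where Cish is red, and the 3 Socs3 rows share a pattern.

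Other genes moved between mice along with Socs3 and Cish. The summed level of 17 proliferation genes was 25000, 16374 and 37432 in Runx1-WT mice and at 45961, 19548 and 14123 in Runx1-null mice, so it was highest in the mice in which Socs3 was lowest and Cish highest. The summed level of 8 hormone-sensing luminal markers was 37106, 35250 and 28858 in Runx1-WT mice and at 20672, 29506 and 32987 in Runx1-null mice, and was lowest in those same mice. Without both mice, a setting chosen after seeing the data, the log2 differences were -0.24, -0.30 and -0.16 for the 3 Socs3 probe sets, 0.34 for Cish, 0.42 for Socs2 and 0.23 for Stat5b. Over all 6 mice, 6 of the 8 hormone-sensing markers had log2 differences below 0 and 2 above. In limma 3 had an unadjusted p under 0.05, where 2% of the 12152 genes tested did, and 0 passed after adjustment. These 3 were lower in Runx1-null cells: Cited1 (-1.17), Wnt4 (-0.93) and Foxa1 (-0.31). The authors had reported Cited1, Foxa1 and Esr1 as lower from their arrays of these cells, so this count is no independent result. The part of the hormone-sensing markers in the member values was not tested.

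Among the brightest probe sets of the 8 tested genes, 28 pairs were compared over the 6 mice. Jak1 and Jak2 had a Pearson r of 0.94 and a Spearman rho of 0.89 (exact permutation p = 0.00833 and 0.0333, adjusted 0.143 and 0.311), and r was 0.81 without the 2 mice farthest from the median of Jak1. For r, 4 of the 28 pairs had an exact permutation p under 0.05, this pair included. The others were Jak1 and Stat5a (r = 0.93), Jak2 and Stat5a (r = 0.93), and Jak1 and Socs3 (r = 0.79). Socs3 and Cish were not among them, with r = -0.80 and rho = -0.77 (exact permutation p = 0.0583 and 0.103, adjusted 0.327 and 0.480). Their r was -0.60 without the 2 mice farthest from the median of Socs3. None of the 28 pairs passed after adjustment, and 4 mice in the lower and 2 in the upper range were too few for a value within either.

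The genes whose pattern was most like that of Stat5a over the 6 mice, by Pearson r of log2 values among 12151 genes, were Lcmt1 (r = 0.998), Gpx3 (r = 0.994), Tha1 (r = 0.989), Hdac8 (r = 0.984) and Krt77 (r = 0.982). Lcmt1 shared the high value of Runx1-null mouse 3, at 5077 against 886 to 2092 in the other mice. The genes most like Cish were Kdm2b, Crybg3, Celf2, Tpm1 and Sh3pxd2a, with r of 0.994 to 0.998, and Celf2 was at 3352 in Runx1-WT mouse 2 and at 6696 in Runx1-WT mouse 3. With 6 mice and this many genes, such values are a description.

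Upstream in the pathway, the ligands and receptors did not separate the genotypes. Of 6 ligand genes tested, 3 lay above 0 and 3 below (median log2 difference 0.012), and 0 had an unadjusted p under 0.05 in limma, where 2% of the 12152 genes tested did. Prl itself was below the floor in every mouse, at 1.67 to 8.59. Lif, a ligand that activates STAT3, was at 3943, 3168 and 3225 in Runx1-WT and at 3560, 4679 and 5999 in Runx1-null mice. Runx1-null mouse 1 lay below Runx1-WT mouse 1, so the groups overlapped (log2 difference 0.44, standard error 0.20). Of 14 cytokine receptor genes tested, 8 lay above 0 and 6 below, and the median was 0.043. Ghr, for the growth hormone receptor, gave a log2 difference of 0.13 (standard error 0.12), and Il6st, which encodes gp130, one of 0.038 (standard error 0.15). Il4ra, for the interleukin-4 receptor, gave one of 0.55 (standard error 0.35), with 1950 in Runx1-null mouse 3 and 673 to 869 elsewhere.

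Among the 5 other JAK and STAT genes tested, 4 lay above 0 and 1 below (median 0.064). Jak3, a kinase mostly known from lymphocytes, was at 97.4, 98.9 and 121 in Runx1-WT and at 151, 148 and 159 in Runx1-null mice. Every Runx1-null mouse was higher (log2 difference 0.54, standard error 0.24; limma adjusted p = 0.9999), as for 2.08% of all genes tested. The summed level of the 13 leukocyte markers was 2860, 2664 and 12475 in Runx1-WT mice and 4617, 2905 and 3421 in Runx1-null mice, and its part in the Jak3 values was not tested. The 4 other SOCS genes, Socs4 to Socs7, had log2 differences of -0.079 to 0.046. Of 12 other inhibitors and adaptors, 8 lay below 0 and 4 above (median -0.092). Ptpn11, whose product SHP2 acts in prolactin signalling, was at 4295, 3969 and 4237 in Runx1-WT and at 4504, 4485 and 4393 in Runx1-null mice, without overlap (log2 difference 0.099, standard error 0.079; limma adjusted p = 0.9999). It was 1 of the 12 tested in its list, where 2.08% of all genes tested were higher in every Runx1-null mouse. None of the genes of these groups had an unadjusted p under 0.05.

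Downstream, 17 prolactin and STAT5 target genes were tested, with 11 above 0, 6 below and a median log2 difference of 0.068, and 0 at an unadjusted p under 0.05. Elf5, an alveolar transcription factor, was at 2691, 1119 and 3640 in Runx1-WT and at 2785, 3126 and 3409 in Runx1-null mice (log2 difference 0.48, standard error 0.40), and was lowest in Runx1-WT mouse 2, as were Cish and Socs2. The milk gene Csn2 was at 20.6, 4.31 and 3119 in Runx1-WT and at 365, 231 and 57.3 in Runx1-null mice. Tnfsf11, which encodes the paracrine signal RANKL, was at 9.67, 6.87 and 4980 in Runx1-WT and at 337, 134 and 28.8 in Runx1-null mice. Runx1-WT mouse 3 stood far above the rest for both, with Runx1-null mouse 1 next, so 1 mouse decided the Runx1-WT means. Ccnd1, for cyclin D1, was level at 6368 ± 826 and 6357 ± 311 (SD, n = 3 each; log2 difference 0.0047, standard error 0.11). Csn3 was also close between genotypes, at 11640 ± 627 and 12038 ± 705 (SD, n = 3 each).

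Of 18 STAT3 target genes tested, 12 lay above 0, 6 lay below, the median was 0.059, and 0 had an unadjusted p under 0.05. Hp, for haptoglobin, was at 4774, 5222 and 2276 in Runx1-WT and at 754, 2858 and 5693 in Runx1-null mice. It was lowest in Runx1-null mouse 1 and Runx1-WT mouse 3, as was Socs3 (log2 difference -0.74, standard error 0.72). Lrg1 was low in the same mice, at 1296 and 1056 against 2881 to 4340 in the others (log2 difference 0.35, standard error 0.59). Myc, Ctsl and Igfbp5 were also lowest in them. The list did not share this order throughout: Bcl3 (1951), Cebpb (3810) and Lbp (670) were highest in Runx1-WT mouse 3. Among 9 immediate early genes, some of which respond to cell dissociation, 7 lay above 0 and 2 below (median 0.075). Their summed level was lowest in Runx1-null mouse 1 and Runx1-WT mouse 3, at 34615 and 34741 against 42694 to 48194.

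**Figure D4:**
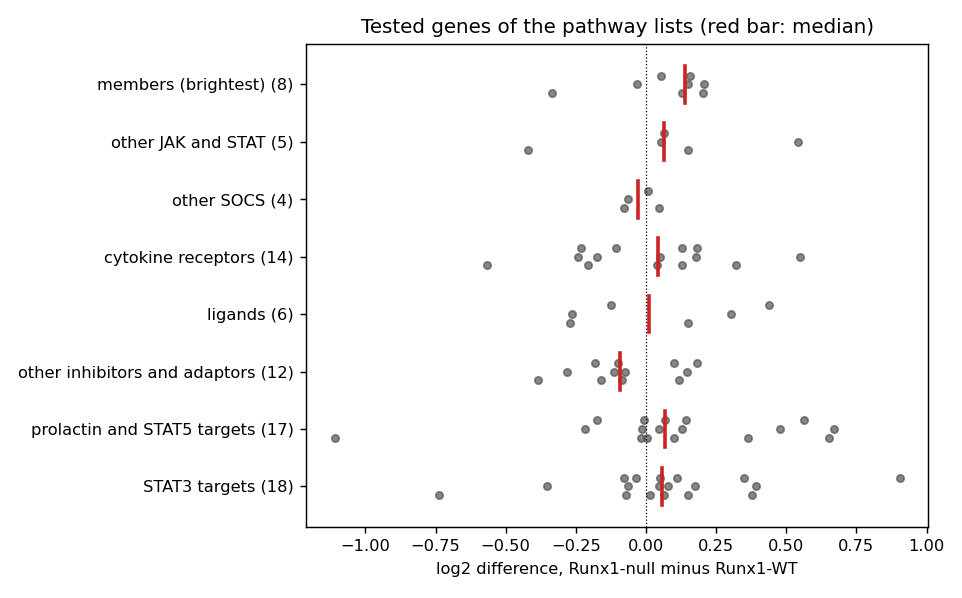
Log2 difference (Runx1-null minus Runx1-WT, x axis) of each tested gene, by its brightest probe set, in the member genes and 7 other lists of the pathway, with the number of tested genes in parentheses. Each point is 1 gene and the red bar is the median of the list. The medians lie between -0.092 and 0.14, and every list has genes on both sides of 0.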

How the data were processed

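Sorted YFP+ luminal cells of 3 Runx1-WT and 3 Runx1-null mice were hybridized to Affymetrix 430 2.0 arrays for mouse genes after amplification of the RNA. The deposited values are linear intensities, which the authors normalized across arrays with dChip, whose version and model are not given in the sources used here. Arrays give no counts, so their number sets the precision. The platform annotation named the probe sets, updated through RefSeq: 34958 had 1 symbol, 932 several and 9211 none. Values were set to a floor at the pooled 20th percentile, and limma 3.58.1 in R 4.3.3 tested those with 1 symbol whose mean reached the 40th percentile. It used eBayes with trend after lmFit, and p-values were adjusted by Benjamini-Hochberg over all 22709. For single values the test was an exact two-sided permutation over the mice. The code was tested on simulated data.

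The members and lists were chosen with earlier results of these data known. The named genes include all members and the 5 most like Stat5a and Cish. Of the lists, some genes are named for a small p, a known role in prolactin signalling or their values in single mice. The STAT3 targets are named for their values in single mice and not for a small p. Genes of the wider lists stand by their brightest probe set. The results were recomputed with a filter at the 60th percentile or none, after median scaling or quantile normalization, with a pseudocount of 5.04, with the animal number range as a block or each range alone, with other variance models, array weights, with the brightest or all probe sets, with the t-test of the methods and without each mouse. Promoter sequences are RefSeq's, for GRCm38.p6.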

Additional observations from a re-analysis of the deposited data

How the results depend on the processing

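Each of the 10 named differences was recomputed under 20 settings with a test, which gave 198 values: 178 kept their sign and their side of the threshold, 18 changed sign and 2 newly passed it. The upper range of animal numbers alone, with no test, gave 5 values of the same sign and 5 of the opposite sign. Stat5b kept its sign in all of them, which subsets of the mice could not change because its groups do not overlap. The count of member probe sets past the adjusted threshold was 0 in every setting with a test except array weights, with 3 (3173 of all 22709 tested). At an unadjusted p under 0.05 the count was 0 in the main setting (382 of all 22709 tested), 1 without a filter (929 of 34958), 4 in the lower range of animal numbers alone (3041 of 22709), 9 with array weights (7828 of 22709), 1 with the methods' t-test (560 of 22709, 0 after adjustment) and 1, of Stat5a, without both mice highest in proliferation (889 of 22709), a setting chosen after seeing the data. The sign turned for Stat3 with median scaling (0.0584), which moved the median of all tested probe sets from -0.031 to 0.0598 and that of the members to 0.12. It turned for Jak1 (-0.0892), Jak2 (-0.0738) and Stat3 (0.01) in the lower range alone. In the upper range alone, with no test, it turned for Socs2 (-0.14), the Socs3 probe sets (0.92, 1.11 and 1.30) and Cish (-1.15). With array weights it turned for Jak1 (-0.0184), Stat3 (0.0288) and Socs2 (-0.0908), and Socs3 passed at -0.60 and -0.72. Without both mice highest in proliferation it turned for Stat3 (0.0538). The cause was not tested.

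Leaving out each mouse in turn gave log2 differences of -0.0582 to 0.18 for Jak1, -0.0022 to 0.28 for Jak2, -0.11 to 0.0278 for Stat3, 0.0054 to 0.24 for Stat5a, 0.16 to 0.24 for Stat5b, -0.15 to 0.42 for Socs2 and -0.23 to 0.57 for Cish. For Socs3 they were -0.68 to 0.0374, -0.80 to 0.0271 and -1.03 to 0.17, for 1455899_x_at, 1456212_x_at and 1416576_at. The median over members ran from -0.15 to 0.0982, and both counts stayed at 0. No paired analysis was possible because the animal numbers on the labels pair no mice across genotypes and the litters are not labelled. Blocking on the animal number range left both counts at 0. With 3 mice a genotype, Socs3 and Cish have wide intervals, and Socs1 is limited by its signal near the floor.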
